A study of Mus musculus with 4 samples.

Results

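The genes described here encode the proteins of the cytosolic ribosome in mouse CD8+ T cells. They were chosen by name and type: every gene annotated as protein coding whose symbol begins with Rps, Rpl, Rplp or Rpsa, leaving out the S6 kinases and Rps19bp1. The rule gave 93 of the 53465 genes in the table, 8 of which carry pseudogene names although they are typed as protein coding. Of the 93, 88 passed the filter on low counts. The cells came from mouse spleen and were kept for 24 h with beads carrying antibodies to CD3 and CD28, which stand in for antigen and costimulation. The study set 2 libraries labelled PP2Cm knockout (KO, PP2Cm-/-) against 2 libraries labelled wild type (WT), all stimulated in the same way, and the labels call the libraries of a genotype biological replicates without saying whether each came from its own animal. Ppm1k encodes PP2Cm, a phosphatase of mitochondria that switches on the enzyme complex committing branched-chain amino acids to breakdown. The sources used here give neither strain, age and sex nor how the allele was made.

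The cytosolic ribosome has a small subunit, which reads the mRNA, and a large subunit, which joins amino acids and carries the peptide tunnel. Its protein genes are among the most transcribed in growing cells, and their mRNAs begin with a run of pyrimidines, the 5′ terminal oligopyrimidine (TOP) motif, through which mTORC1 and LARP1 govern their translation and stability. A T cell that meets antigen builds many new ribosomes before it divides. Most of these genes also have processed pseudogenes, intronless copies of their mRNA elsewhere in the genome.

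The genotype of the libraries is not settled by their labels. The title and genotype field of each library disagree with its description code, which starts like the opposite genotype, and groups follow the title. Ppm1k had 157 and 206 counts in the libraries labelled KO, against 102 and 94 counts in those labelled WT, so the target gene was higher under the KO label (log2 fold change 0.97, standard error (SE) 0.23, adjusted p = 0.186 by edgeR). Without the library labelled WT 1 that difference passed the threshold, with a log2 fold change of 1.24 and an adjusted p of 0.0278. A gene's total count does not tell reads of 1 exon from those of another. All directions below are the libraries labelled KO against those labelled WT, and would be the reverse if the description codes were right. Library totals were 13394074 and 14199020 counts in the libraries labelled KO and 12967251 and 17316284 counts in those labelled WT. The sum of 8 T cell markers (Cd8a, Cd8b1, Cd3d, Cd3e, Cd3g, Trac, Cd2 and Lck) is given in CPM (counts scaled to the size of the library). It was 2520 and 2358 CPM in the libraries labelled KO, against 2828 and 2589 CPM in those labelled WT. None of these markers was at 0, and 6 of the 8 were lower and 2 higher under the KO label. Cd8a had a log2 fold change of −0.01 and Cd8b1 of −0.18, both with overlap between groups.

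No ribosomal protein gene passed the threshold in the libraries labelled KO, but most stood slightly lower there. Of the 88 genes tested, 71 had a negative log2 fold change and 17 a positive one, where 51.9% of all genes tested were negative. The median was −0.10 over the ribosomal protein genes, with quartiles of −0.16 and −0.02, and −0.01 over all 13528 genes. At an adjusted p under 0.05 (edgeR quasi-likelihood test, Benjamini-Hochberg over all genes tested) 0 of the 88 were called, where 0.207% of all genes tested were. Before adjustment, 4 genes were lower and 0 higher at p under 0.05, against a background of 7.23% lower and 5.7% higher, so low p values were no more frequent here than over all genes. DESeq2 called 1 gene, Rpl3, which was lower, where it called 1.25% of the genes lower. In 26 genes both libraries labelled KO were below both labelled WT, where 23.3% of all genes tested were. In 4 genes, Rps27a, Rpl7l1, Rps13 and Rpl39l, both were above, where 21.5% of all genes were. In bulk RNA, fewer cells of a type and less RNA per cell cannot be told apart.

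**Figure D1:**
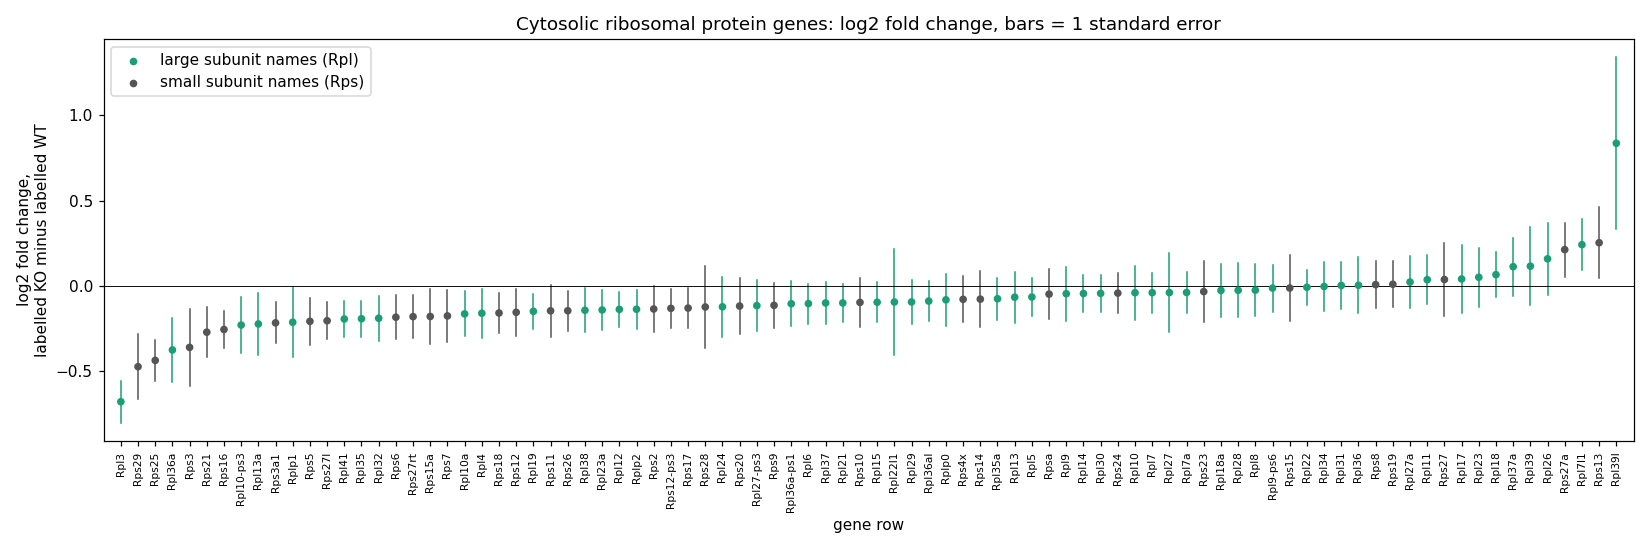
Log2 fold change of each of the 88 tested ribosomal protein genes (y axis, labelled KO minus labelled WT, from edgeR), ordered from lowest to highest along the x axis, with bars of 1 SE and colours for the subunit in the gene's name. Of the 88 points 71 lie below 0, Rpl3 lies lowest at −0.68, and Rpl39l, highest at 0.84, has the widest bar.

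As a whole the 93 genes held 3.63% and 3.25% of all counts in the libraries labelled KO, against 3.61% and 3.84% in those labelled WT. The means were 3.44 ± 0.271% for KO and 3.72 ± 0.165% for WT (SD, n = 2 each), a difference of −0.284 percentage points that was about the size of the spread between replicates, and the range of the KO libraries overlapped that of the WT libraries. With 2 libraries a group, no exact permutation test of such a share can pass the threshold. In the deposited FPKM, which divide counts by gene length, the share was 5.32% and 4.85% in the libraries labelled KO, against 5.13% and 5.32% in those labelled WT.

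Levels differed widely between genes. Per gene length, the mean FPKM over the 4 libraries ran from 0.859 to 2028, with a median of 66.2 over the 88 genes. The highest mean FPKM belonged to Rplp1 of the stalk (2028), Rpl8 of the large subunit core (1998), Rps12-ps3, an intronless copy of Rps12 (1214), Rps15, a protein near the decoding site (1039), and Rpl4, which lines the peptide tunnel (990). The lowest belonged to the paralogue Rpl39l (0.859) and to Rps13 (0.92), Rps27 (2.29), Rpl9 (2.82) and Rpl36a (9.03), which are single core proteins of the ribosome. The gene lengths implied by count and FPKM were 2.97 times the longest coding transcript in the median, so many levels understate the mRNA per length. The excess was uneven. Implied length and longest coding transcript were both 499 bases in Rplp1 and both 494 bases in Rps12-ps3. They were 8365 against 1317 bases in Rps13, 2890 against 458 in Rps27 and 10922 against 2690 in Rpl9. The order of genes by FPKM thus depends in part on these lengths. Another limit is that many genes share their sequence with a copy, as the following cases show.

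Rpl3, a protein that reaches into the peptidyl transferase centre of the large subunit, had the largest difference among the well-counted genes. It lies at chr15:80077794-80091868 (GRCm38). It had 587 and 528 CPM in the libraries labelled KO, against 850 and 933 CPM in those labelled WT. The groups did not overlap, and the means were 558 ± 41.7 CPM under the KO label and 892 ± 58.5 CPM under the WT label (SD, n = 2 each). The log2 fold change was −0.68 (SE 0.12, 95% limits −0.97 and −0.39), with an unadjusted p of 0.000943 and an adjusted p of 0.0981 by edgeR. DESeq2 gave an adjusted p of 0.000234. An intronless copy on the X chromosome, Rpl3-ps1 (chrX:13202571-13203780), is counted on a row of its own, and its 1209-base match to the Rpl3 coding sequence is 99.8% identical, with 2 mismatches. The first 90 coding bases of both, and of the paralogue Rpl3l, are shown because they tell how little separates the rows of Rpl3 and its copy (GENCODE M21, GRCm38). Capitals mark letters that differ from Rpl3.

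Rpl3: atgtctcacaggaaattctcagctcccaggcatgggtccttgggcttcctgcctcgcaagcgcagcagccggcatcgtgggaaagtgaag

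Rpl3-ps1: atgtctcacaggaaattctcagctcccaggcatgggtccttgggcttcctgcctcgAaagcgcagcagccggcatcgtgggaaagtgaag

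Rpl3l: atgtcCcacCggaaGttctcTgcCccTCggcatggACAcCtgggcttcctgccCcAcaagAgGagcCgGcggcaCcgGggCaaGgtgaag

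The Rpl3-ps1 row held 1684 and 1531 CPM in the libraries labelled KO, against 1566 and 1723 CPM in those labelled WT. This copy thus had more counts than Rpl3 itself in every library, its groups overlapped, and its log2 fold change was −0.03 (adjusted p = 0.949 by edgeR). Rpl3l, the paralogue of heart and skeletal muscle, matches Rpl3 at 73.9% of coding bases and had 0 counts in all 4 libraries, where a count of 0 allows up to 0.224 and 0.211 CPM in the libraries labelled KO and 0.231 and 0.173 CPM in those labelled WT (3 counts a library, counting error only). Summed with its 7 matched copies, Rpl3 had 2757 and 2482 CPM in the libraries labelled KO, against 2844 and 3172 CPM in those labelled WT, and the log2 fold change was −0.20 (SE 0.14, adjusted p = 0.608 by edgeR).

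Among the small subunit genes, 26 of 31 were lower and 5 higher in the libraries labelled KO, with a median log2 fold change of −0.13 and a range of −0.47 to 0.25, and none passed the threshold. The median was −0.02 without WT 2, −0.05 without KO 2, −0.22 without WT 1 and −0.20 without KO 1. Rps25, a protein used in initiation at internal ribosome entry sites, lies at chr9:44407139-44410427. It had 129 and 149 CPM in the libraries labelled KO, against 198 and 179 CPM in those labelled WT. The groups did not overlap, with a log2 fold change of −0.44 (SE 0.12, adjusted p = 0.233 by edgeR). Its annotated exons overlap those of the antisense genes Ccdc84 and Trappc4, and the use of strand in counting is unknown. The copy Rps25-ps1 (chr6:145266400-145266777) matches 98.9% of its 375 coding bases, and the first 90 of each are set side by side, with capitals for letters that differ from Rps25.

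Rps25: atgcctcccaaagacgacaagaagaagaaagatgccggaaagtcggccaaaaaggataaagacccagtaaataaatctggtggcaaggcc

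Rps25-ps1: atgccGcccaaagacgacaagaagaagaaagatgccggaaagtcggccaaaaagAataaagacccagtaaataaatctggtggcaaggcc

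Rps25-ps1 had 118 and 132 CPM in the libraries labelled KO, against 110 and 106 CPM in those labelled WT, the opposite direction to Rps25 (log2 fold change 0.21, SE 0.11, adjusted p = 0.482 by edgeR). Rps25 with its 6 matched copies had 570 and 565 CPM in the libraries labelled KO, against 594 and 545 CPM in those labelled WT. The groups overlapped, and the log2 fold change was −0.0047 (SE 0.11, adjusted p = 0.990 by edgeR).

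Rps29, a zinc-binding protein of the small subunit head, had only 8.18 and 9.06 CPM in the libraries labelled KO, against 10.9 and 12.99 CPM in those labelled WT. Its log2 fold change was −0.47 (SE 0.19, adjusted p = 0.370 by edgeR), without overlap. Rps3, which lines the mRNA entry channel, had 1940 and 1212 CPM in the libraries labelled KO, against 1899 and 2143 CPM in those labelled WT. Its log2 fold change was −0.36 (SE 0.23, adjusted p = 0.562 by edgeR), and −0.05 without KO 2. Rps16, whose tail contacts the peptidyl tRNA, had 528 and 512 CPM in the libraries labelled KO, against 618 and 622 CPM in those labelled WT. Its replicates lay close together and its groups did not overlap, with a log2 fold change of −0.25 (SE 0.11, adjusted p = 0.386 by edgeR). Rps21 had 137 and 131 CPM in the libraries labelled KO, against 140 and 183 CPM in those labelled WT, a log2 fold change of −0.27 that was −0.06 without WT 2.

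Rps6, the substrate of the S6 kinases, had 371 and 351 CPM in the libraries labelled KO, against 369 and 450 CPM in those labelled WT (log2 fold change −0.18, SE 0.13). Rpsa, also known as the laminin receptor, had 2140 and 1864 CPM in the libraries labelled KO, against 2215 and 1922 CPM in those labelled WT, with overlap (−0.05 on the log2 scale). Rps19, the gene most often mutated in human Diamond-Blackfan anaemia, had 319 and 291 CPM in the libraries labelled KO, against 270 and 335 CPM in those labelled WT (0.01 on the log2 scale). For these 3 genes the groups overlapped. Rps4x had a log2 fold change of −0.08, Rps15 of −0.01 and Rps28 of −0.12, also with overlap. Rps28 varied by 31.1% of its mean between replicates of a group and Rps3 by 32.7%, among the widest spreads of the 88 genes.

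Rps13, which sits at the junction of the subunits, had 7.96 and 8.78 CPM in the libraries labelled KO, against 6.37 and 7.64 CPM in those labelled WT (log2 fold change 0.25, SE 0.21). Its row held 446 counts over the 4 libraries, and its copies held 50211, so that 0.880% stood on its own row. Rps13-ps1 matches 99.6% of the 453 coding bases of Rps13 and Rps13-ps2 all of them. Rps13-ps1 had 525 and 478 CPM in the libraries labelled KO, against 554 and 619 CPM in those labelled WT. Rps13 with its 8 matched copies gave a log2 fold change of −0.20 (SE 0.13, adjusted p = 0.573 by edgeR), the opposite sign to its own row. Rps27a, which is made as a fusion with ubiquitin, behaved likewise: its own row had 63.2 and 65.1 CPM in the libraries labelled KO, against 48.3 and 62.3 CPM in those labelled WT. Its log2 fold change was 0.21 on its own row and −0.09 with its 10 matched copies, and neither passed the threshold.

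**Figure D2:**
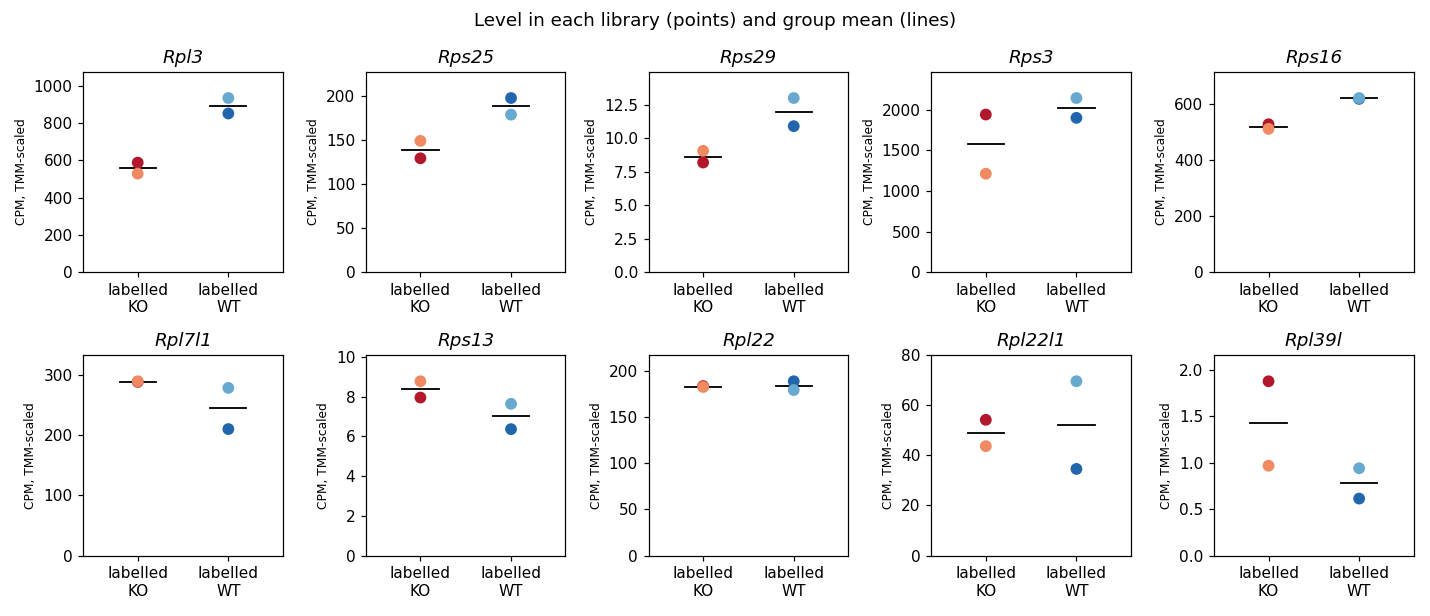
Level in each library (y axis, CPM scaled by TMM, from 0) of 10 ribosomal protein genes, with labelled KO left of labelled WT, lines for group means, and dark points for replicate 1 and light points for replicate 2. Rpl3, Rps25, Rps29 and Rps16 show both KO points below both WT points, Rps3 has 1 low KO point at 1212 CPM, and Rpl22 lies between 179 and 189 CPM in all 4 libraries.

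Of the 43 large subunit genes, 33 were lower and 10 higher in the libraries labelled KO, with a median log2 fold change of −0.04 and a range of −0.68 to 0.16, and none passed the threshold. The median was 0.02 without WT 2, −0.02 without KO 2, −0.15 without WT 1 and −0.15 without KO 1. Rpl4 had 2594 and 2300 CPM in the libraries labelled KO, against 2640 and 2826 CPM in those labelled WT, without overlap (log2 fold change −0.16, SE 0.14). Rpl8 had 1850 and 1569 CPM in the libraries labelled KO, against 1608 and 1870 CPM in those labelled WT, with overlap (−0.02). Rpl7, which binds the large subunit rRNA, varied little, with 1267 and 1245 CPM in the libraries labelled KO, against 1285 and 1295 CPM in those labelled WT (−0.04). Of these 3 highly counted genes, Rpl8 alone overlapped between groups. Rpl10, which completes the large subunit late in the cytoplasm, had 63.1 and 62.9 CPM in the libraries labelled KO, against 56.2 and 73.2 CPM in those labelled WT (−0.04). Rpl10a, linked in mice to preferential translation of some mRNAs, had a log2 fold change of −0.16. Rpl38, whose loss in mice alters Hox mRNA translation, stood at −0.14, and Rpl13a, which also acts in interferon-gamma-induced silencing of mRNAs in human cells, at −0.22. The adjusted p of these 4 genes lay between 0.656 and 0.949 by edgeR. Rpl9 had a log2 fold change of −0.04 and Rpl27 of −0.04, and Rpl27 varied by 34.1% of its mean between replicates of a group.

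The stalk proteins, which recruit elongation factors to the large subunit, were all lower in the libraries labelled KO, none past the threshold. Rplp0, the stalk base, had 2762 and 2324 CPM in the libraries labelled KO, against 2584 and 2795 CPM in those labelled WT (log2 fold change −0.08). Rplp1 had 1112 and 767 CPM in the libraries labelled KO, against 966 and 1210 CPM in those labelled WT (−0.21). Rplp2 had 402 and 382 CPM in the libraries labelled KO, against 406 and 456 CPM in those labelled WT (−0.14), and of the stalk genes it alone did not overlap between groups. The pair that travels with 5S rRNA and can bind MDM2 when ribosome assembly fails overlapped between groups. Rpl5 had 311 and 306 CPM in the libraries labelled KO, against 343 and 302 CPM in those labelled WT (−0.06). Rpl11 had 66.1 and 56.8 CPM in the libraries labelled KO, against 56.5 and 63.2 CPM in those labelled WT (0.04).

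Paralogues, some of which can take the place of a core protein, showed no common direction. Of the 6 tested among these genes, 2, Rpl7l1 and Rpl39l, were higher under the KO label and 4 lower. Rpl22 is required for development of alpha-beta T cells in mice and represses its paralogue Rpl22l1. Rpl22 had 183 and 183 CPM in the libraries labelled KO, against 189 and 179 CPM in those labelled WT (log2 fold change −0.01, SE 0.10, 95% limits −0.25 and 0.23). Rpl22l1 had 54.2 and 43.7 CPM in the libraries labelled KO, against 34.6 and 69.6 CPM in those labelled WT (−0.09, SE 0.31). The libraries labelled WT held both the lowest and the highest Rpl22l1 value, and its spread of 47.5% of the mean was the widest of the 88 genes. Rpl7l1, a nucleolar relative of Rpl7, had 289 and 290 CPM in the libraries labelled KO, against 210 and 279 CPM in those labelled WT (0.24, SE 0.15, adjusted p = 0.550 by edgeR). Without WT 1 its log2 fold change was 0.06 and without WT 2 it was 0.46.

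Rpl36a had 26.7 and 19.6 CPM in the libraries labelled KO, against 29.8 and 30.1 CPM in those labelled WT (−0.37, SE 0.19; −0.16 without KO 2 and −0.61 without KO 1), while its intronless paralogue Rpl36al had 79.4 and 75.4 CPM in the libraries labelled KO, against 79.8 and 84.7 CPM in those labelled WT (−0.09). Rpl39, a small protein of the peptide tunnel, had 132 and 98.4 CPM in the libraries labelled KO, against 83.02 and 129 CPM in those labelled WT (0.12). Rpl39l, its testis paralogue, had 1.88 and 0.968 CPM in the libraries labelled KO, against 0.614 and 0.941 CPM in those labelled WT, a log2 fold change of 0.84 with an SE of 0.50 at levels a few times the limit that a count of 0 allows. Rpl10l, another testis paralogue, had 0 counts in all 4 libraries, as did Rpl36-ps4. Rpl13a-ps1 had 8 and 8 counts in the libraries labelled KO, against 5 and 12 counts in those labelled WT, and Rpl9-ps1 had 2 and 2 counts in the libraries labelled KO, against 0 and 3 counts in those labelled WT. These 3 genes, with Rpl3l and Rpl10l, are the 5 below the filter.

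Rps27, a zinc finger protein of the small subunit, stands beside a retrogene with far more counts. Its coding sequence of 252 bases is 100% identical to that of Rps27rt, an intronless gene on chromosome 9, and 74.2% identical to that of Rps27l, a paralogue known as a p53 target. Their first 90 coding bases follow, with capitals for letters that differ from Rps27 (GENCODE M21, GRCm38).

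Rps27: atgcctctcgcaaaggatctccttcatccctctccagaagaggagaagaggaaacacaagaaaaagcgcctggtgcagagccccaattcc

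Rps27rt: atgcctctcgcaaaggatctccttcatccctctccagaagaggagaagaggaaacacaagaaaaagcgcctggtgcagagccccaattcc

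Rps27l: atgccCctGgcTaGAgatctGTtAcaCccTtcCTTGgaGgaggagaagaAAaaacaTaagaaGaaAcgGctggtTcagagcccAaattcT

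Over the 4 libraries Rps27 had 385 counts and Rps27rt 12810. Rps27 had 6.53 and 6.91 CPM in the libraries labelled KO, against 6.14 and 6.94 CPM in those labelled WT (log2 fold change 0.04). Rps27rt had 224 and 189 CPM in the libraries labelled KO, against 223 and 245 CPM in those labelled WT (−0.18, SE 0.12). With identical coding sequences, the split between these rows depends on how the authors' counting placed shared reads, which is not stated. Rps27l, which can be told apart by sequence, had 95.8 and 89.4 CPM in the libraries labelled KO, against 109 and 104 CPM in those labelled WT, without overlap (−0.20, SE 0.11, adjusted p = 0.497 by edgeR).

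Many counts stood on the rows of copies. Rows that shared at least 25% of their 31-base words with a ribosomal protein transcript, or were named as its pseudogene, numbered 701, including the 8 with pseudogene names among the 93. They held 4.81% and 4.40% of all counts in the libraries labelled KO, against 4.94% and 5.15% in those labelled WT, more than the 93 genes themselves in every library. Together, genes and copies held 8.30% and 7.52% of counts in the libraries labelled KO, against 8.42% and 8.85% in those labelled WT. The means were 7.91 ± 0.553% for KO and 8.63 ± 0.305% for WT (SD, n = 2 each), a difference of −0.720 percentage points. On this sum the groups did not overlap, and the difference was larger than the SD of either group. Of 83 genes summed with their copies and tested, 51 had under 50% of the counts on their own row and 21 under 10%, with a median of 34.2%. Rps23 had 1.82% on its own row, Rpl17 2.44%, Rps29 2.56%, Rpl9 2.67% and Rpl28 2.80%, while Rps3, Rpl8 and Rplp2 had over 99%.

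Summed in this way, the ribosomal protein genes lay closer together than on their own rows. Of the 83, 80 had a negative log2 fold change and 3 a positive one, where 51.6% of all genes tested were negative after the same summing. The positive ones were Rpl39l at 0.83, Rpl7l1 at 0.25 and Rps27 at 0.05, whose sum does not hold Rps27rt since that is a gene of its own here. With Rps27rt added as well, Rps27 had 231 and 196 CPM in the libraries labelled KO, against 229 and 253 CPM in those labelled WT, and its log2 fold change was −0.18 (SE 0.12, adjusted p = 0.599 by edgeR), which left 2 positive of 82. On their own rows 66 of the same 83 were negative. The median log2 fold change was −0.15, with quartiles of −0.18 and −0.11, against −0.09 on their own rows, and the SD over genes was 0.133 against 0.176. None passed the threshold in edgeR, and none had an unadjusted p under 0.05. In 36 of the 83 both libraries labelled KO were below both labelled WT, and in 2 above, where after the same summing 23.5% of all genes tested were below and 21.7% above. The largest shifts on adding copies were those of Rpl3, Rps13, Rps25, Rps29 and Rps27a. Rps29 gave −0.08 in place of −0.47, with 443 and 346 CPM in the libraries labelled KO, against 377 and 456 CPM in those labelled WT. The log2 fold change moved by a median of 0.0714 in genes with under 50% of counts on their own row and by 0.00762 in the others. The sum itself favours this contrast, since copies that hold most of the counts weigh most in it. Rps3, which had no matched copy, stayed at −0.36. Summing was chosen with the data in view, and copies that are transcribed themselves cannot be told apart from parents in it.

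**Figure D3:**
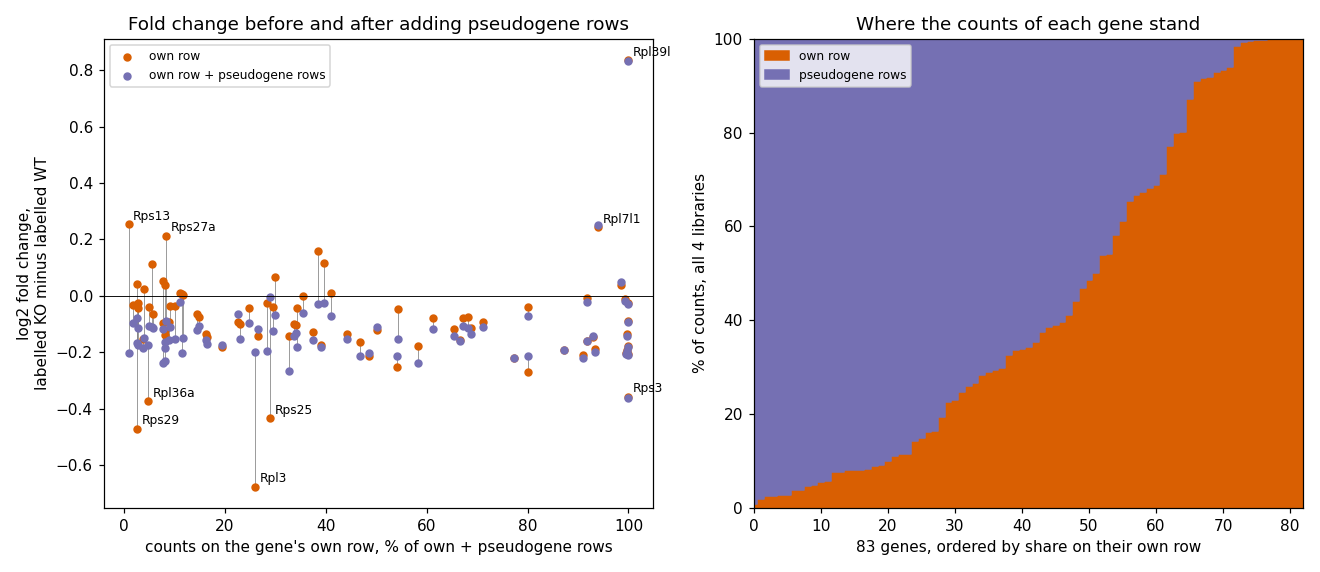
Left, log2 fold change (labelled KO minus labelled WT) of 83 ribosomal protein genes on their own row and summed with their pseudogene rows, joined by a line, against the share of counts on the own row in percent; right, that share for each gene as a stacked bar, over all 4 libraries. Rpl3, Rps25, Rps29, Rps13 and Rps27a lie under 30% on the left axis and move most, and 51 of the 83 genes have under 50% of counts on their own row.

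Libraries of the same label differed more than the labels did on the genes' own rows, and about as much with copies added. Relative to each gene's mean over the 4 libraries, the median log2 deviation of the 88 rows was 0.03 and −0.12 in the libraries labelled KO 1 and KO 2, against −0.05 and 0.13 in those labelled WT 1 and WT 2. The library labelled KO 2 was the lowest of the 4 in 52 of the 88 genes, and the library labelled WT 2 was the highest in 58. Of the 13481 tested genes with a count in every library, KO 2 was the lowest in 3571 and WT 2 the highest in 3732. With copies added, the medians were 0.01 and −0.17 in the libraries labelled KO, against −0.0014 and 0.14 in those labelled WT, so that KO 1 and WT 1 lay within about 0.01 of each other. Without KO 2, 39 of the 88 genes were positive and the median log2 fold change was −0.02. Without WT 2, 41 were positive and the median was −0.02. Without KO 1 or WT 1 the median was −0.16. The library labelled WT 2 was also the deepest, and the part of depth in the result was not tested. The 82 mitochondrial ribosomal protein genes tested had a median log2 fold change of −0.02, with 52 negative and 30 positive. Over all genes tested 51.9% were negative. In 8 of the 82 both libraries labelled KO were below both labelled WT and in 8 above, where 23.3% and 21.5% of all genes were. The median deviations of the 82 were 0.04 and −0.07 in the libraries labelled KO, against −0.10 and 0.12 in those labelled WT.

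**Figure D4:**
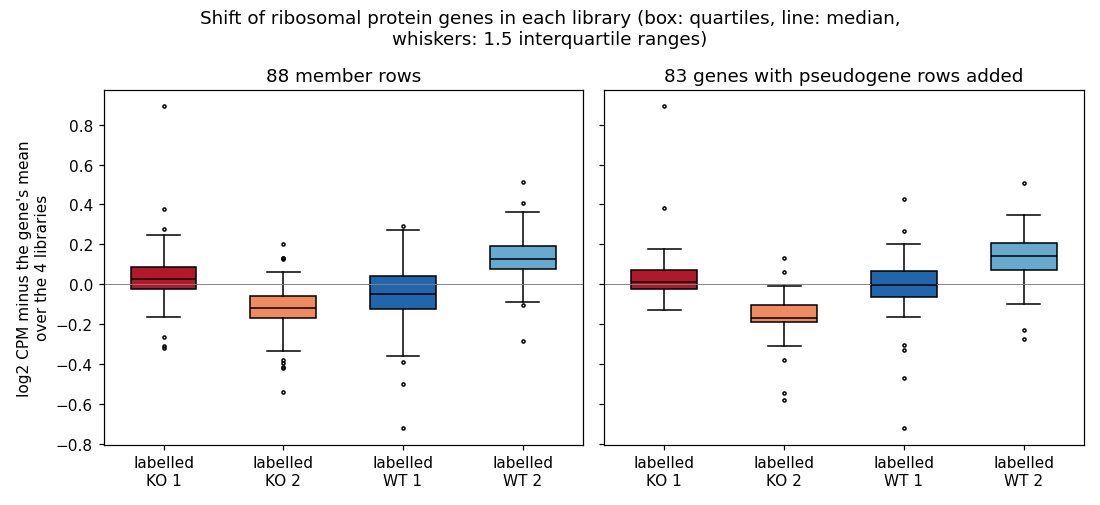
Log2 CPM minus the gene's mean over the 4 libraries (y axis) for each library (x axis), for the 88 ribosomal protein rows on the left and 83 genes with pseudogene rows added on the right; boxes give quartiles, lines medians, whiskers 1.5 interquartile ranges. The library labelled KO 2 lies lowest, with medians of −0.12 and −0.17, and the library labelled WT 2 highest, with medians of 0.13 and 0.14.

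Most promoter windows of these genes held a run of pyrimidines near the annotated start, which need not be the run that begins the mRNA. Windows from RefSeq (GRCm38.p6) matched 65 of the 93 genes, with 77 windows, and 28 genes had none. An unbroken run of at least 7 pyrimidines (C or T) on the gene's strand stood between 25 bases before and 50 after the annotated start in 76.6% of these windows, against 40.0% of all 32851 windows, with a median longest run of 10 against 6 letters. The windows below, from 25 bases before to 25 from the start, with the longest run in capitals, show long and short runs near the start, among lower (Rps25, Rps16, Rps6, Rplp2) and higher genes (Rpl39l, Rpl7l1) and in Rps27 and Rpl22l1. These windows were picked as examples, and whether the length of the run goes with direction was not tested.

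Rps25 (chr9:44407689-44407738, plus strand): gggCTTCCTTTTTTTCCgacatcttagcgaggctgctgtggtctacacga

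Rps16 (chr7:28350664-28350713, plus strand): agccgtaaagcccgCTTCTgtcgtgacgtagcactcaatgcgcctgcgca

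Rps6 (chr4:86857343-86857392, minus strand): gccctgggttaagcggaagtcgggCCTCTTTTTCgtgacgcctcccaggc

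Rplp2 (chr7:141447626-141447675, plus strand): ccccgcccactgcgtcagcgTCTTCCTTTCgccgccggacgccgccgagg

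Rps27 (chr3:90213624-90213673, minus strand): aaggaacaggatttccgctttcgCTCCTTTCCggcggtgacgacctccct

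Rpl39l (chr16:10170203-10170252, plus strand): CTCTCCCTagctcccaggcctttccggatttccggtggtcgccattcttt

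Rpl7l1 (chr17:46782632-46782681, minus strand): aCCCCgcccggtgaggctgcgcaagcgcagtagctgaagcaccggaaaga

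Rpl22l1 (chr3:28805483-28805532, plus strand): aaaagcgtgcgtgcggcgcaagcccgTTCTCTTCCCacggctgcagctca

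The runs were 14 letters in Rps25, 10 in Rps6, Rplp2 and Rpl22l1, 9 in Rps27, at least 8 in Rpl39l, 5 in Rps16 and 4 in Rpl7l1. In Rpl39l the run begins at the first base shown, so it may be longer. The runs of Rps25, Rps16, Rpl39l and Rpl7l1 ended before the annotated start. Over the full 300 bases and both strands, GGAAGT, the core bound by ETS factors such as GABP, stood in 44.2% of the windows of ribosomal protein genes and in 23.8% of all windows. ATGGCG, the core of YY1 sites, stood in 31.2% against 8.93%, and the GC box GGGCGG in 59.7% against 35.7%. TATAA stood in 23.4% against 24.9%. A match is a run of letters in a window and not a shown site.

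The median of the TOP mRNAs outside the ribosome lay close to that of the ribosomal protein genes. Of 21 genes of the translation machinery and related TOP mRNAs, 19 were lower and 2 higher in the libraries labelled KO, none past the threshold, with a median log2 fold change of −0.08 and a range of −0.75 to 0.19. In 8 of them the libraries labelled KO were both below and in 2 both above those labelled WT. Over all genes tested, 51.9% were lower, and both libraries labelled KO were below in 23.3% and above in 21.5%. Eef1a1, the elongation factor that delivers tRNA, had 6985 and 6414 CPM in the libraries labelled KO, against 8118 and 7770 CPM in those labelled WT, without overlap (−0.25, SE 0.16, adjusted p = 0.582 by edgeR). Eef2, the translocation factor, had 7148 and 6591 CPM in the libraries labelled KO, against 7676 and 7774 CPM in those labelled WT, also without overlap (−0.17). Fau, which encodes a ribosomal protein fused to a ubiquitin-like protein, had 392 and 318 CPM in the libraries labelled KO, against 348 and 419 CPM in those labelled WT (−0.11).

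The genes that control or accompany ribosomal proteins did not share that sign, and none passed the threshold. Of 14 genes of TOP control by mTORC1, 8 were higher with the KO label and 6 lower, with a median log2 fold change of 0.01. Larp1, which binds TOP mRNAs, had 824 and 794 CPM in the libraries labelled KO, against 691 and 709 CPM in those labelled WT, without overlap (0.21, SE 0.11, adjusted p = 0.489 by edgeR). Of 15 genes on a list of chaperones and assembly factors, not all specific to ribosomal proteins, 13 were higher and 2 lower. Their median of 0.17 ran from 0.08 without WT 1 to 0.28 without WT 2. Of 13 tested genes of ribosomal stress and p53, 10 were higher and 3 lower, with a median of 0.16 that was −0.04 without WT 2, −0.01 without KO 2 and 0.36 without WT 1. Of 12 transcription factors with sites in ribosomal protein promoters, 9 were higher and 3 lower, with a median of 0.06 that was −0.01 without WT 2. Over all genes tested 48.1% were higher.

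Markers of other cells moved with the labels in part. The 7 B cell markers summed to 303 and 266 CPM in the libraries labelled KO, against 422 and 368 CPM in those labelled WT, with none at 0. The 8 erythroid and platelet markers summed to 1.65 and 2.28 CPM in the libraries labelled KO, against 3.30 and 6.17 CPM in those labelled WT, with Alas2 at 0. The 5 stromal and endothelial markers summed to 18.1 and 19.0 CPM in the libraries labelled KO, against 37.0 and 30.6 CPM in those labelled WT, with Cdh5 and Col3a1 at 0. The part of these cells in the values of ribosomal protein genes was not tested. The 9 myeloid markers summed to 6.31 and 6.29 CPM in the libraries labelled KO, against 4.91 and 9.70 CPM in those labelled WT, with S100a9 at 0. The 4 CD4 and regulatory T cell markers summed to at most 22.5 CPM in the libraries labelled KO, against 14.7 and 23.2 CPM in those labelled WT, with none at 0. That sum hides opposite directions, with 3 markers higher and 1 lower under the KO label. Their log2 fold changes ran from −0.71 to 0.96, none past the threshold. The 6 dendritic cell markers summed to 2.55 and 4.08 CPM in the libraries labelled KO, against 4.07 and 5.997 CPM in those labelled WT, with Cd209a at 0, and the 4 NK cell markers summed to at most 3.38 CPM in any library.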

How the data were processed

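RNA sequencing of CD8+ T cells was analysed in 4 libraries, 2 labelled KO and 2 labelled WT, grouped by title. Per the labels, mRNA was purified from total RNA and a stranded kit was used. Per the file headers, the authors deposited raw counts per gene, whole numbers with no normalization, and FPKM, counts per kilobase of gene length and library total. Per the submitters' processing notes, kallisto and GRCm38 were used, with no version or role given. The sources used here do not give the placing of reads that match several genes or the use of strand. Another 8 value columns were not used.

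Counts were filtered by filterByExpr, scaled by TMM and tested with edgeR 4.0.16 (R 4.3.3) over 13528 genes, two-sided, adjusted by Benjamini-Hochberg with a threshold of 0.05. The biological coefficient of variation was 15.9% and prior degrees of freedom were 4.87. Replicates differed beyond counting noise, with a chi-square per degree of freedom of 12.8 in the KO pair and 17.6 in the WT pair. No label says that they are separate animals, so p values measure the spread between these libraries, which may be technical. The scripts were tested on simulated counts. DESeq2 1.42.0, limma 3.58.1 on log2(FPKM + 1), other scalings, no filter, a replicate block, leaving out each library, a length correction and sums over pseudogene rows were alternatives. Pseudogene rows were matched by 31-base words in GENCODE M21, and all 93 genes were found there. Of the 93 genes, 28 share exons with a gene on the same strand and 19 with one on the opposite strand, so part of their counts is uncertain.

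Members and lists were chosen with earlier results of these data known. Named genes were the 10 with the largest log2 fold change, the 5 highest and 5 lowest by FPKM, the 5 with the widest replicate spread, any past the threshold and a fixed list by role. Rps23, Rpl17 and Rpl28 were named after their values were seen. Rps4l, typed as a pseudogene in the table, is not among the 93 genes: it had 28 and 47 counts in the libraries labelled KO, against 36 and 36 in those labelled WT.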

Additional observations from a re-analysis of the deposited data

How the results depend on the processing

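Among the 15 alternatives the median log2 fold change of the ribosomal protein genes stayed negative, between −0.163 and −0.0166, and its smallest sizes came without the library labelled WT 2 (−0.0166) and without KO 2 (−0.0247). Other scalings moved the median of all genes by less than 0.02 and gave 67 to 71 negative of 88. The number of positive genes was 27 with the length trend removed, 8 with named pseudogene rows summed and 3 with sequence-matched rows summed, or 2 with Rps27rt also summed into Rps27 (chosen after seeing the data, as the sequence matching was), and 9 to 41 with 1 library left out. The number of ribosomal protein genes called was 1 with DESeq2, 1 with no low-count filter and 0 to 1 with 1 library left out, each time Rpl3. Rpl3 had an adjusted p of 0.000234 with DESeq2, 0.0333 with no filter and 0.0365 without WT 1, and up to 0.608 over the alternatives. Over all genes, 253 were called by DESeq2, 146 with no filter, 5 by limma, 17 with the length trend removed and 8 to 304 with 1 library left out, against 28. The difference in share was −0.720 points with sequence-matched rows summed and −0.475 to −0.0926 with 1 library left out. Ppm1k lay at 0.734 to 1.24 with 1 library left out, and passed without WT 1 alone. The cause of these changes was not tested.

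The labels do not say whether replicate numbers pair the samples. The correlation of same-numbered deviations was −0.172 over all genes, and with 2 pairs it cannot settle this. The replicate block called 123 genes and 0 ribosomal protein genes, with 18 positive and a median of −0.0952. Crossed pairs, chosen after seeing the data, called 12 and 0.

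Of 39 named ribosomal protein genes, 20 kept their sign in every alternative run, and in 34 leaving out 1 library moved the value by over 1.5 times or turned it. Values of the others are log2 fold changes. With sequence-matched rows summed, Rpl11 was −0.166, Rpl39 −0.0247, Rps13 −0.204, Rps19 −0.0736 and Rps27a −0.0884, and with Rps27rt summed too these were the same to 3 digits and Rps27 was −0.176. With named rows summed, Rpl39 was −0.0112, Rps13 −0.200, Rps19 −0.0701 and Rps27a −0.0172. With library totals Rpl22 was 0.0107 and Rps15 0.00266. By limma, Rpl22 was 0.0110, Rpl22l1 1.02e-05, Rpl27 0.0216 and Rps15 0.0303. With the replicate block, Rpl27 was 0.00214 and Rps15 0.0119. With the length trend removed, Rpl27 was 0.0244, Rpl8 0.0762 and Rps15 0.0801. Rpl22 was 0.000391 with DESeq2 and 0.00123 with RLE scaling, and Rps19 was −0.000646 with no filter. With 1 library left out, the ranges were −0.211 to 0.166 for Rpl10, −0.0762 to 0.149 for Rpl11, −0.0439 to 0.0360 for Rpl22, −0.502 to 0.5003 for Rpl22l1, −0.342 to 0.362 for Rpl27, −0.159 to 0.471 for Rpl39, −0.155 to 0.0377 for Rpl5, −0.147 to 0.0954 for Rpl8, −0.158 to 0.0878 for Rpl9, −0.210 to 0.0444 for Rplp0, −0.504 to 0.0374 for Rplp1, −0.261 to 0.296 for Rps15, −0.131 to 0.176 for Rps19, −0.0390 to 0.132 for Rps27, −0.480 to 0.172 for Rps28, −0.172 to 0.0173 for Rps4x, −0.150 to 0.0646 for Rpsa and −0.271 to 0.0367 for Fau. Rpl39l had 63 counts over the 4 libraries, Rps27 385 and Rps13 446, which limits their precision. With 2 libraries a group the difference in share of −0.284 points was near the pooled SD of 0.224.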
